A study of Mus musculus with 15 samples.

Results

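Cells carrying the yellow fluorescent mark of Wap-Cre;R26Y mice were profiled at midgestation and in the virgin gland, and the comparison below covers these 6 of the 15 arrays of the study. The midgestation cells are alveolar luminal cells (ALs), lineage-negative and YFP-positive mammary epithelial cells (MECs) taken at midgestation from females of the genotype Wap-Cre;R26Y, with 3 arrays. They are set against the alveolar luminal stem/progenitor population (ALPs), lineage-negative and YFP-positive MECs sorted from virgin Wap-Cre;R26Y females, also with 3 arrays. All these females were adults of the C57BL/6 strain and carried both alleles. Cre is driven by the promoter of the whey acidic protein gene (Wap), and R26Y is a conditional YFP reporter at the Rosa26 locus that stays on in the descendants of a cell in which Cre once acted, so the mark records past Cre activity and not present Wap expression. Luminal progenitors (LPs), mature luminal cells (MLs) and basal cells enriched for mammary stem cells (MaSCs) from adult virgin wild-type females, with 3 arrays each, serve only as a scale. How many animals stand behind each marked replicate is not given in the sources used here, so the p-values cover no more than the spread among these arrays, which may be technical, and a batch confined to the ALP arrays cannot be told apart from the population.

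The mammary alveolus is the milk-making unit of the gland. During pregnancy, progesterone acts on hormone-sensing luminal cells, which release paracrine signals such as the RANK ligand, and prolactin acts through Jak2 and Stat5 on alveolar cells; together these drive the proliferation and secretory differentiation of the alveolar lineage. Caseins and whey acidic protein are induced ahead of lactation, whereas full milk secretion starts around birth.

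Values are intensities on a linear scale, and differences are log2 of AL minus ALP from a linear model (limma) over 12143 genes. The threshold was an adjusted p of 0.05. Replicate 3 of the ALPs carried transcripts of other cell types, described at the end, so each call was repeated without it. Leaving it out does not remove such transcripts from the other ALP arrays, where endothelial markers were also above their level in LPs. The words "rose", "fell", "higher" and "lower" are used of ALs for genes that passed in both fits unless stated otherwise. By that rule 2091 genes (17.2% of those tested) were higher in ALs and 2125 (17.5%) were lower, and the median log2 difference over all genes was -0.02 with all ALP arrays and 0.03 without replicate 3. With all arrays 2276 genes (18.7%) were higher and 2573 (21.2%) lower, and without replicate 3 the counts were 2656 (21.9%) and 2281 (18.8%). The split between higher and lower depends on the scale of the arrays. Higher genes made up 46.9% of those passing on the deposited scale, 59.9% after quantile normalisation and 73.9% after centring each array on its median, which moved the median of all genes to 0.26. Centring moves the difference of every gene by the same amount, so it changes calls and signs but not the distance of a group from the median of all genes.

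Milk protein genes rose in part. Of the 5 caseins, the main milk proteins, 4 rose in ALs, and of 16 tested genes in the whole milk protein list 8 rose and 2 fell, with a median log2 difference of 1.59 (1.28 without ALP replicate 3). Wap, the gene whose promoter drives the Cre, had intensities of 4811, 8717 and 4648 in ALs, against 98.6, 62.1 and 39.4 in ALPs. The ALP values of Wap lay below the median intensity of their arrays (161.7 to 209.9), and the gene averaged 111 in LPs, 23.8 in MLs and 17.1 in MaSCs. Wap was 93.2-fold higher in ALs (log2 6.54, SE 0.35, adjusted p = 6.04e-07). Without ALP replicate 3 it differed by log2 6.21, less than Fabp3 (6.49) and Gjb6 (6.35).

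Csn1s1, the alpha-S1 casein gene, reached 14886, 16126 and 15939 in ALs, against 561.9, 348.6 and 327.4 in ALPs, a 39.1-fold difference (log2 5.29, SE 0.38, adjusted p = 2.58e-06). Csn2, the beta casein gene, reached 14252, 15065 and 14805 in ALs, against 1198, 97.1 and 424.6 in ALPs (log2 5.32, SE 1.04, adjusted p = 0.00192). The AL arrays lay close together, while the ALP arrays spread over more than a factor of 10 for Csn2. Csn1s2a, an alpha-S2 casein gene, reached 16577, 17193 and 17281 in ALs, against 1587, 834 and 651.2 in ALPs (log2 4.16). Csn1s2b, the other alpha-S2 casein, rose by log2 3.38 at a lower level. The highest intensity of any probe set was 20616 to 21167 on the AL arrays, so the casein readings sat near the upper end of the scale.

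Csn3, the kappa casein that stabilises the casein micelle, did not pass. It read 15291, 17092 and 16401 in ALs, against 16255, 16339 and 15068 in ALPs (log2 0.03, SE 0.12, adjusted p = 0.852), with overlapping arrays. The gene averaged 17076 in LPs and 10975 in MLs. On the ALP arrays the highest intensity of any probe set was 21101 to 21905. Csn3 was thus near the upper end of the scale in both populations, where a rise may not show. Lalba, the alpha-lactalbumin subunit of lactose synthase, read 220.4, 665.9 and 221.1 in ALs, against 369.7, 168.1 and 185.4 in ALPs, and the groups overlapped (log2 0.50, adjusted p = 0.469). Among secreted proteins, Cel, a lipase of milk, rose by log2 2.58, whereas Ltf, the iron-binding lactoferrin, was 3.57-fold lower in ALs (1989, 4558 and 2446, against 8798, 10628 and 10793 in ALPs; adjusted p = 0.00397). The milk fat globule genes Btn1a1 and Xdh did not pass, and Mfge8 fell by 0.47 on the log2 scale.

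Glycam1, a secreted mucin-like milk protein, had the largest standard error of the 179 genes named by rule. It read 16456, 18575 and 17630 in ALs, against 6697, 27 and 1022 in ALPs. All AL arrays lay above all ALP arrays, but ALP replicate 1 was far nearer to the ALs than replicate 2 (log2 4.94, SE 1.59, adjusted p = 0.0276). The gene failed the test when ALP replicate 2 was left out (log2 2.74, adjusted p = 0.0749), when any single AL array was left out (adjusted p = 0.0620 to 0.0685) and when only the 6 arrays were fitted (adjusted p = 0.113). ALP replicate 1 had the highest value of the ALP arrays for 12 of the 16 milk protein genes tested, Wap included, and the lowest for 1.

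**Figure D1:**
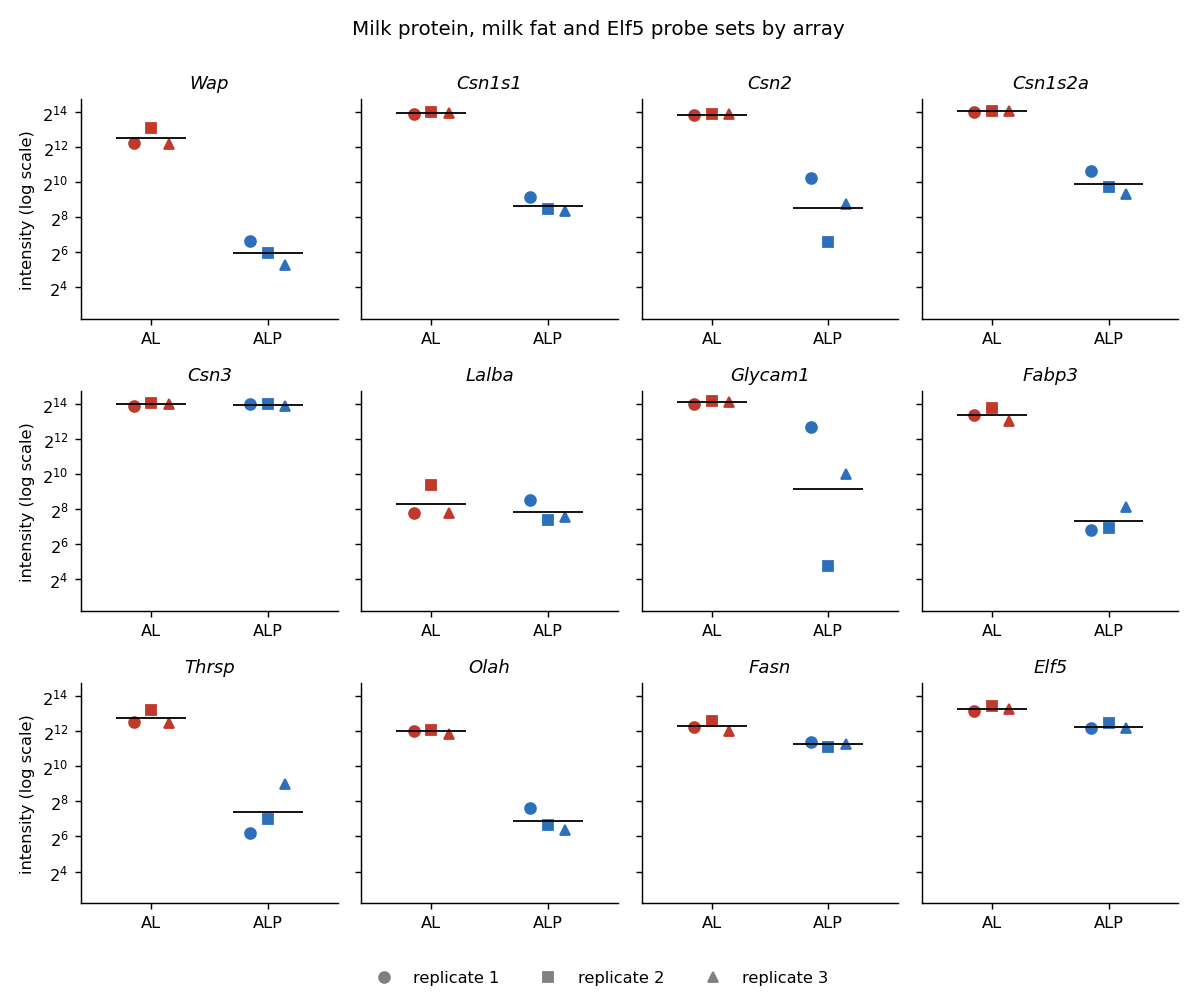
Intensity on a log2-spaced axis of 12 probe sets for milk proteins, milk fat enzymes and Elf5 in each of the 3 AL arrays (red) and 3 ALP arrays (blue). Symbols mark the replicate and lines the mean of the log2 values. Csn3 and Lalba overlap between the populations, Wap, Csn1s1 and Fabp3 are widely apart, and Glycam1 spans 27 to 6697 within the ALPs.

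The promoters of these genes are shown because Wap drives the Cre and because Stat5, the transcription factor downstream of the prolactin receptor, binds TTCNNNGAA, a palindromic element. RefSeq windows of the GRCm38.p6 build run from 250 bases before to 50 bases after the annotated start, 5′ to 3′ on the strand of the gene, with each TTCNNNGAA in capitals. Wap lies on chromosome 11 (chr11:6638600-6638899, minus strand), Csn2 on chromosome 5 (chr5:87699376-87699675, minus strand) and Csn1s1 on the same chromosome (chr5:87665958-87666257, plus strand).
Wap: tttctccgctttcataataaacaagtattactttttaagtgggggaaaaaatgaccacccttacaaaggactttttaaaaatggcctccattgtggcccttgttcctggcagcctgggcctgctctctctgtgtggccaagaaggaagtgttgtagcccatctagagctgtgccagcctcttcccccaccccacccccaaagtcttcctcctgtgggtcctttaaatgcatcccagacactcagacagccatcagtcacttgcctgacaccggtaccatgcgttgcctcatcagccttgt
Csn2: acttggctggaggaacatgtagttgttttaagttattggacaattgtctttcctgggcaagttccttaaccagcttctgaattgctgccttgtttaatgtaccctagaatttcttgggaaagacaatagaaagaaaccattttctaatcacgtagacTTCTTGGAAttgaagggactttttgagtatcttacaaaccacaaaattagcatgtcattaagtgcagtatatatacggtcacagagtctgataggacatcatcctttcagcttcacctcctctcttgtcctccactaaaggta
Csn1s1: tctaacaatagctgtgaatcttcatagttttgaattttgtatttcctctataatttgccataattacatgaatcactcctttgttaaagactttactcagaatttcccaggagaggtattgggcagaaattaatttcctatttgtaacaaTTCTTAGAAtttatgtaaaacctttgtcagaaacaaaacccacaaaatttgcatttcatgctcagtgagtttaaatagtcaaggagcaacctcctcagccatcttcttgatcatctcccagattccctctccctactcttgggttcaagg
The element starts at -93 in Csn2 and at -100 in Csn1s1, and the Wap window holds none. Of 11 milk protein genes with a window in the table, 4 (36.4%) held the letters, among them all 3 caseins covered, against 8.11% of the 9797 tested genes with a window. None of 24 milk fat genes held it. A match describes the sequence and is not evidence of binding.

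Milk fat genes rose more often than they fell. Of 34 tested members 14 rose and 4 fell (median log2 0.34), and in the fatty acid synthesis subgroup 7 of 10 rose and 1 fell. Fabp3, which carries fatty acids in the cytosol, read 10485, 13791 and 8467 in ALs, against 115.1, 123.8 and 277.9 in ALPs (log2 6.08, SE 0.34, adjusted p = 6.90e-07). Thrsp, a regulator of medium-chain fatty acid synthesis, read 5817, 9392 and 5739 in ALs, against 74.6, 127.8 and 518.8 in ALPs (log2 5.32). Olah, the thioesterase that ends chain growth early, read 4161, 4376 and 3737 in ALs, against 196.8, 101.8 and 83.3 in ALPs (34.4-fold, adjusted p = 8.52e-06). None of these 3 genes overlapped between the populations.

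The common enzymes of fatty acid synthesis moved much less. Fasn, fatty acid synthase, read 4858, 6118 and 4103 in ALs, against 2723, 2216 and 2475 in ALPs (log2 1.01, SE 0.14), and Acaca, acetyl-CoA carboxylase, rose by log2 1.04. Elovl6 (fatty acid elongation, log2 1.11), Fads1 (desaturation, 0.97), Acsl3 (fatty acid activation, 1.03) and Srebf1 (the lipogenic transcription factor, 0.70) also rose. Among members that fell was Dgat2, which adds the last acyl chain of triglycerides. It read 1116, 1008 and 969.8 in ALs, against 3848, 4043 and 4822 in ALPs (4.10-fold lower). Cidea, a lipid droplet protein, also fell (log2 -1.35). Adipocyte markers summed to more on each ALP array than on any AL array, as given at the end. Their part in these falls was not tested. Plin2, which coats milk lipid droplets, passed with all arrays (log2 0.32, adjusted p = 0.0492) and not without ALP replicate 3 (adjusted p = 0.0671). In the cholesterol pathway 3 of 21 members rose, Mvd (log2 1.6), Pmvk (1.09) and Stard4 (1.21), and Msmo1 fell by 1.19. With the 6 arrays alone 7 passed as higher, and after median centring 11.

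None of 13 tested genes for lactose synthesis and sugar supply was higher in both fits, although 5 passed as higher after median centring. In both fits 3 were lower, and of all genes tested 17.2% were higher and 17.5% lower. The 3 were Pgm2, phosphoglucomutase (log2 -1.05), Slc2a3, a glucose transporter (84.9, 169.0 and 130.7 in ALs, against 658.4, 386.4 and 2089 in ALPs; log2 -2.72, -2.03 without ALP replicate 3), and Hk2, hexokinase (log2 -0.79). The 8 tested genes of calcium handling included 2 that fell and none that rose, against the same shares of all genes. Atp7b, a copper pump of the secretory pathway, read 2179, 2978 and 2160 in ALs, against 77.9, 103.0 and 79.9 in ALPs (28.0-fold, log2 4.81, adjusted p = 2.29e-06). All its AL arrays lay far above all ALP arrays. Water and ion channels ran the other way, with 6 of 11 lower and none higher. These were the sodium channel subunits Scnn1a (log2 -2.83) and Scnn1b (-1.86), the cotransporter Slc12a2 (-0.70) and the aquaporins Aqp1 (-2.85), Aqp3 (-1.81) and Aqp5 (-1.81).

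Of 5 tested gap junction genes 2 rose and 3 did not pass in both fits (median log2 -0.31). Gjb6, which encodes connexin 30, read 2860, 3463 and 2486 in ALs, against 35.9, 35.5 and 48.7 in ALPs (73.5-fold, log2 6.2, SE 0.58, adjusted p = 1.45e-05), and it averaged 19.6 in LPs and 17.4 in MLs. Gjb2, connexin 26, rose by log2 1.11 (9701, 9724 and 9595, against 5693, 4883 and 3204 in ALPs). Of 17 tight junction genes 2 rose, Tjp3 (log2 1.56) and Pard6b (0.63), and 2 fell. Among all genes tested 17.2% were higher and 17.5% lower. Cldn5 (log2 -2.42), among those that fell, is also counted with the endothelial markers described at the end.

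Of 14 tested components of the prolactin and Stat5 pathway none rose and 6 fell, with a median log2 difference of -0.16. After centring the arrays on their medians 5 passed as higher and 3 as lower, at a median of 0.11, so the balance of this list rests on the scale. Stat5a read 7401, 7320 and 7171 in ALs, against 5575, 6978 and 6709 in ALPs (log2 0.19, adjusted p = 0.227), and Stat5b did not pass either. The genes that fell were Jak2 (log2 -0.53), Cebpb (-0.42), Ptpn11 (-0.22) and 3 negative regulators of cytokine signalling. Of these, Socs3 read 1313, 1659 and 1365 in ALs, against 3924, 4447 and 8309 in ALPs (log2 -1.87, -1.54 without replicate 3), Cav1 fell by 2.02 and the phosphatase gene Ptpn1 by 1.55 on the log2 scale. Cish and Socs2, feedback inhibitors induced by Stat5 in many cells, did not pass.

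Elf5, the transcription factor that specifies the alveolar lineage, read 9177, 11066 and 9881 in ALs, against 4608, 5677 and 4581 in ALPs. The groups did not overlap, and the difference was log2 1.02 (SE 0.52), yet the test shares its error with the other 3 populations and did not call it (adjusted p = 0.139). It passed with the 6 arrays alone (adjusted p = 0.00486), with array weights (0.0187), with median centring (0.0444) and with the probe set of largest variance (log2 2.33, adjusted p = 0.000258), and not in the other settings tried (0.106 to 0.260).

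The ligand and both receptors of the RANK system, 3 of 3 tested, rose. Tnfsf11, the RANK ligand, is induced by progesterone in hormone-sensing cells and acts on neighbouring progenitors through its receptor RANK. It read 753.9, 923.1 and 1145 in ALs, against 42.6, 18.0 and 46.1 in ALPs (28.3-fold, log2 4.82, SE 0.47, adjusted p = 2.04e-05), and averaged 73.6 in MLs and 18.7 in LPs. Its ALP values lay below the array medians, and with 16 added to each intensity the difference was 18.9-fold. Tnfrsf11a, which encodes RANK, read 561.8, 795.8 and 588.7 in ALs, against 66.3, 104.0 and 205.2 in ALPs (log2 2.51, adjusted p = 0.000304). The decoy receptor gene Tnfrsf11b also passed (log2 1.34, adjusted p = 0.0397), but its AL values of 45.8 to 62.3 lay below the array medians of 147.5 to 158.5, its ALP values were 14.2, 14 and 46.2, and a brighter probe set used without a filter gave -0.41. None of 13 downstream genes, the Rank adaptor, NF-kB subunits and their inhibitors among them, passed in both fits, whereas after median centring 8 of all 16 genes of the RANK list passed as higher.

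In the mature luminal hormone-sensing list 10 of 13 tested members were lower in ALs and 1, Tnfsf11, was higher; the median log2 difference was -2.73, or -2.12 without ALP replicate 3, and all 13 were free of overlap between AL and ALP arrays, as were 53.4% of all genes tested. Pgr, the progesterone receptor, read 529.2, 426.9 and 583.6 in ALs, against 4535, 6951 and 6116 in ALPs (11.3-fold lower, log2 -3.50, SE 0.39, adjusted p = 4.38e-05). Foxa1, the pioneer factor of estrogen receptor binding, read 1201, 1125 and 1151 in ALs, against 4458, 5650 and 6457 in ALPs (log2 -2.24). Prom1, a surface marker of estrogen receptor positive cells, read 354.1, 378.0 and 545.1 in ALs, against 5761, 7967 and 5720 in ALPs (log2 -3.94). For all 3 genes every AL array lay below every ALP array.

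Esr1, the estrogen receptor alpha gene, fell less. It read 4017, 2898 and 2839 in ALs, against 5033, 6650 and 7894 in ALPs (log2 -1.0, SE 0.28, adjusted p = 0.0153), and its adjusted p was 0.0498 without ALP replicate 3 and 0.0536 and 0.0559 without AL replicate 2 or 3. The estrogen and progesterone target genes Greb1 (log2 -3.35), Stc2 (-2.73) and Wnt5a (-3.71), and the transcription factor genes Msx2 (-2.83) and Tbx3 (-1.80), fell. Cited1, a coactivator of the estrogen receptor, passed with all arrays (log2 -2.32, adjusted p = 0.0186) and missed the threshold without ALP replicate 3 (-2.10, adjusted p = 0.0516).

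In the marked virgin cells several of these transcripts had means between those of LPs and MLs. Pgr averaged 5867 in ALPs, 1980 in LPs and 8576 in MLs. Prom1 averaged 6483 in ALPs, 3202 in LPs and 9090 in MLs, and Wnt5a averaged 3164 in ALPs, 1280 in LPs and 5213 in MLs. In ALPs minus LPs, 5 of the 13 members passed as higher and none as lower, against 3.58% and 3.95% of all genes tested, but without ALP replicate 3 only 1 member passed, against 1.75% higher and 2.22% lower of all genes. In bulk samples fewer cells of a type and less RNA per cell cannot be told apart, and this holds for each gene that fell here.

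**Figure D2:**
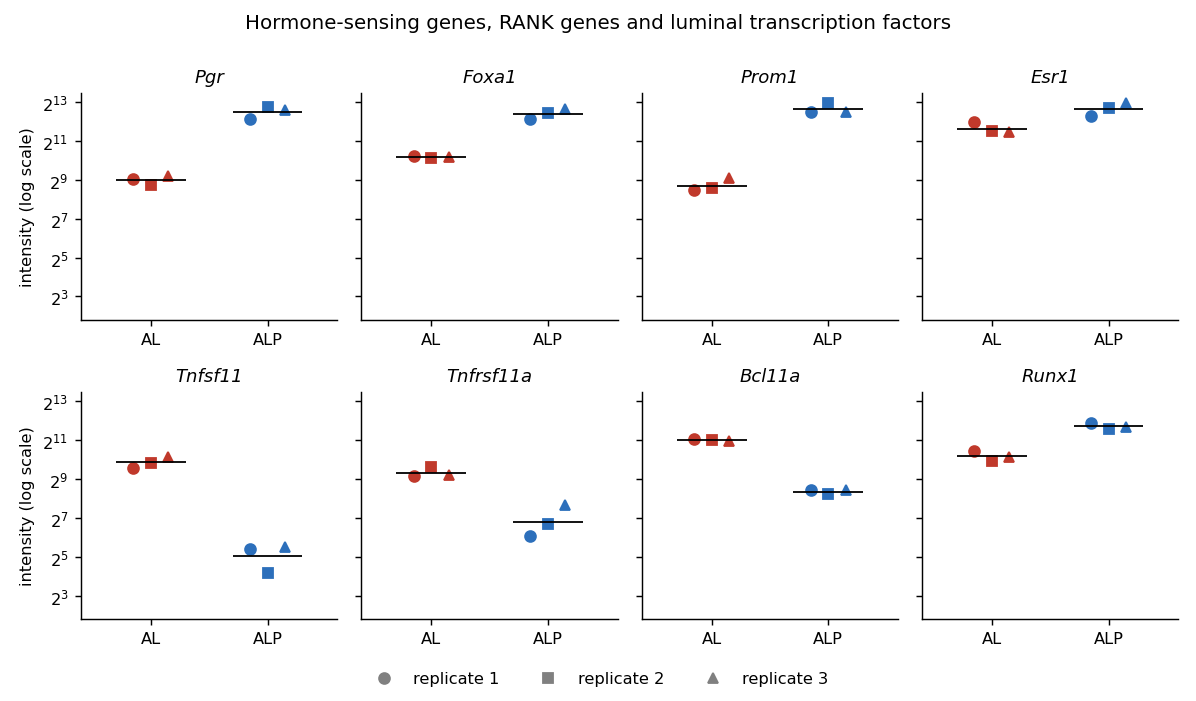
Intensity on a log2-spaced axis in each of the 3 AL arrays (red) and 3 ALP arrays (blue) for 4 hormone-sensing genes (top) and for the RANK ligand and receptor, Bcl11a and Runx1 (bottom); lines are means of log2 values. Pgr, Foxa1, Prom1, Esr1 and Runx1 are lower in ALs, and Tnfsf11, Tnfrsf11a and Bcl11a are higher, with no overlap in any panel.

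Among 26 luminal transcription factors 10 fell and 1 rose (median log2 -0.17), and after median centring 10 passed as lower and 6 as higher (median 0.10). Runx1, the factor that the study pursued, read 1388, 967.4 and 1146 in ALs, against 3756, 3093 and 3276 in ALPs (2.91-fold lower, log2 -1.54, SE 0.13, adjusted p = 8.76e-06), and its other probe sets gave Runx1 differences of -1.83, -1.94, -0.93 and -0.69. The smallest of these missed the threshold with all arrays (adjusted p = 0.0513) and passed without ALP replicate 3 (0.0140). In ALPs minus LPs Runx1 differed by -0.01 (adjusted p = 0.970). The gene that rose was Bcl11a, a zinc finger factor of luminal progenitors, with 2116, 2054 and 2002 in ALs, against 341.5, 299.8 and 343.3 in ALPs (6.28-fold, log2 2.65, adjusted p = 1.74e-06). The remaining genes that fell included Tfap2b (log2 -1.20), Elf3 (-1.22) and the Notch target Hey1 (-1.53), while Gata3, the master factor of luminal cells, did not pass (-0.22, adjusted p = 0.0841; 0.05 after median centring).

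Markers of luminal progenitors passed in shares near those of all genes. Of 17 tested members 4 fell, 2 rose and 11 did not pass in both fits, against 17.5% lower and 17.2% higher of all genes tested. After median centring 4 passed in each direction. The summed intensity of the list was 81878 to 83315 in ALs, against 85273 to 86809 in ALPs. Itgb3, which encodes CD61, the surface protein that separates LPs from MLs in the virgin gland, read 539.2, 498.9 and 406.9 in ALs, against 3577, 2452 and 2896 in ALPs (6.15-fold lower, adjusted p = 6.76e-06). Aldh1a3, a retinaldehyde dehydrogenase, fell by 1.66 on the log2 scale. Kit, the stem cell factor receptor, read 4440, 4170 and 4348 in ALs, against 4332, 4651 and 4414 in ALPs, and Sox10 and Cd14 also did not pass. Rspo1, a secreted enhancer of Wnt signalling, read 4866, 5019 and 4858 in ALs, against 402.2, 184.2 and 183.1 in ALPs (20.6-fold, log2 4.36, adjusted p = 0.000123). Of the luminal keratins Krt8, Krt18 and Krt19 did not pass (log2 -0.05, -0.02 and -0.05), nor did Epcam (-0.12). The list of 13 luminal keratin and identity genes had mean log2 intensities of 13.14 to 13.20 on the AL arrays. On the ALP arrays they were 13.18 to 13.34, so these transcripts were bright in both populations. Transcripts of other cell types in the ALPs are described at the end. Krt7 fell by 1.40.

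Nearly all genes of the cell cycle lists rose. Of 30 genes of mitosis 27 rose and none fell (median log2 3.34), and of 33 genes of DNA replication 31 rose and none fell (median log2 1.52), against 17.2% higher among all genes tested. The summed intensity of the mitosis list was 87421 to 100828 in ALs, against 8518, 21881 and 19386 in ALPs, and that of the replication list was 107391 to 117379 in ALs, against 42568 to 58858 in ALPs. Arrays did not overlap for any of the 30 mitosis genes and for 32 of the 33 replication genes, and ALs lay above ALPs without overlap for 25.9% of all genes tested.

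Mki67, the proliferation marker Ki-67, read 5443, 4903 and 4731 in ALs, against 66.4, 876.8 and 477.9 in ALPs (log2 4.05, SE 0.95, adjusted p = 0.00571). Bub1, a kinase of the spindle checkpoint, read 2151, 1707 and 2080 in ALs, against 28.9, 175.0 and 114.7 in ALPs (log2 4.56), and Kif11, the motor that separates spindle poles, read 2025, 1404 and 1824 in ALs, against 87.7, 167.4 and 161.7 in ALPs (log2 3.70, adjusted p = 3.72e-05). ALP replicate 1 was the lowest of the ALP arrays for 29 of the 30 mitosis genes, the array that was highest for most milk protein genes. Aurka did not pass (log2 0.85, adjusted p = 0.142), Kif2c passed only without ALP replicate 3 (adjusted p = 0.0376), and Anln only with it (0.0180, and 0.0501 without).

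Replication genes moved less per gene. Pole, the leading-strand polymerase, rose by log2 3.19, Tk1, thymidine kinase, by 2.91 and Gins1, a part of the replicative helicase, by 2.81 (2730, 2423 and 2724 in ALs, against 204.0, 471.1 and 543.2 in ALPs; adjusted p = 5.40e-05). All 6 helicase genes Mcm2 to Mcm7 rose, by log2 0.36 (Mcm4) to 2.20 (Mcm5). Pcna, the sliding clamp, read 9103, 8313 and 8885 in ALs, against 7911, 6950 and 8298 in ALPs (log2 0.19, adjusted p = 0.0941; 0.0499 without ALP replicate 3), and Slbp, which binds histone messenger RNA, did not pass. Of 14 tested genes in a list of D cyclins, CDK inhibitors and related genes 3 rose and 1 fell, against 17.2% and 17.5% of all genes. After median centring 6 passed as higher. The kinase gene Cdk4 (log2 0.68), Rbl1 (1.22) and the D cyclin gene Ccnd1 (0.31) rose. Cdkn1a, which encodes the p21 inhibitor, fell, with 2702, 2266 and 2930 in ALs, against 8147, 6900 and 8435 in ALPs (2.98-fold lower, adjusted p = 7.50e-06).

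The promoter of Mki67 is shown for the letters TTTGAA, the core of the cell cycle genes homology region that repressor and activator complexes bind in many mitotic genes. This motif was chosen after the values had been seen. The window (GRCm38.p6, chr7:135716330-135716629, minus strand, drawn from RefSeq as above) has each TTTGAA, searched on both strands, in capitals.
Mki67: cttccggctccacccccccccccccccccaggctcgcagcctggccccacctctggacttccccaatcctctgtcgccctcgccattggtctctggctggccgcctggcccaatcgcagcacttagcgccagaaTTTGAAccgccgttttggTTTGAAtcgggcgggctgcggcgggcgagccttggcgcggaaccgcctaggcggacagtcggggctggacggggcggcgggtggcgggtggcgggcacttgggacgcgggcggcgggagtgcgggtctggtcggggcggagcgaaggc
The matches start at -116 and -98. Of 25 mitosis genes with a window 18 (72.0%) held the letters, against 14.3% of the 9797 tested genes with one and 7.41% of 27 replication genes. Such a short match is common and is given as a description of sequence only.

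**Figure D3:**
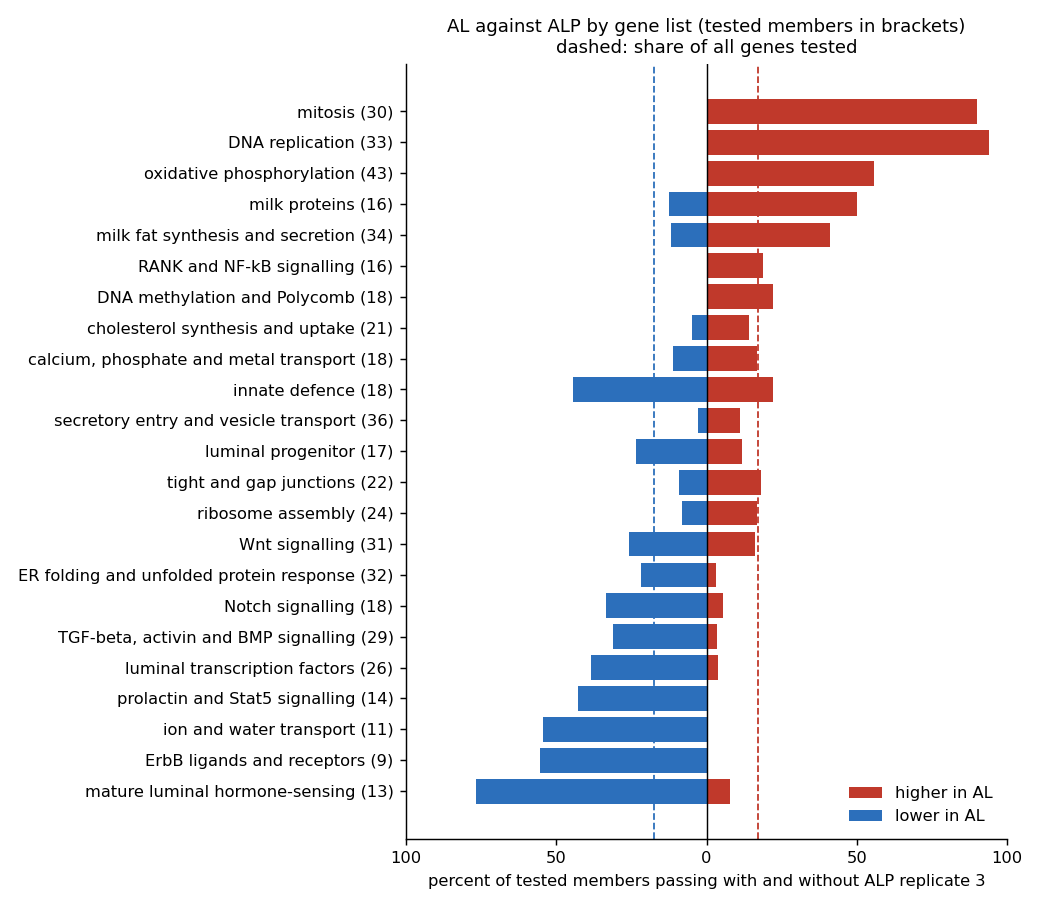
Percent of tested members of 23 gene lists that were higher (red, right) or lower (blue, left) in ALs than in ALPs with and without ALP replicate 3; the number tested is in brackets and dashed lines mark the 17.2% and 17.5% of all genes. Mitosis, DNA replication and oxidative phosphorylation lie far to the right of the dashed line, and hormone-sensing, ErbB and ion transport genes far to the left.

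Of 43 tested genes of mitochondrial respiration 24 rose and none fell, with a median log2 difference of 0.25 against -0.02 for all genes, and 14 passed when the 6 arrays were fitted alone. After median centring 41 passed as higher. The largest were Ndufc2, a subunit of complex I (9706, 8941 and 9170 in ALs, against 6268, 5739 and 6802 in ALPs; log2 0.57), and Cyc1, cytochrome c1 (log2 0.56). Of 28 cytosolic ribosomal proteins 1, Rpl14, rose on the deposited scale, with a list median of 0.02, and 23 passed as higher after median centring. Of 8 housekeeping genes none passed in both fits on the deposited scale, with Actb at log2 0.00, and 4 passed as higher after centring.

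Counts for the secretory machinery and amino acid supply stand beside 17.2% higher and 17.5% lower of all genes tested on the deposited scale. Of 32 genes of folding and the unfolded protein response in the endoplasmic reticulum 1 rose and 7 fell, and after median centring 8 passed as higher and 4 as lower. Derl3, a degradation factor, rose by log2 2.47, while Ern1, the stress sensor Ire1 (1224, 1113 and 1094 in ALs, against 2432, 3260 and 2872 in ALPs; log2 -1.31), Atf6 (-0.60) and Trib3 (-1.17) fell. Of 36 genes of translocation and vesicle transport 4 rose and 1 fell, and 20 passed as higher after median centring. Among 28 genes of amino acid supply and tRNA charging 3 rose, including Phgdh of serine synthesis (log2 1.23), and 4 fell, including the cystine transporter gene Slc7a11 (-2.31) and Mthfd2 of mitochondrial folate metabolism (-1.78), while after median centring 7 passed as higher and 3 as lower.

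The counts of the ErbB, Notch and TGF-beta lists stand beside 17.5% lower and 17.2% higher of all genes tested. Of 9 tested ErbB genes 5 fell and none rose. These were the ligand genes Tgfa (466.9, 380.8 and 650.0 in ALs, against 2068, 1421 and 1144 in ALPs; log2 -1.62), Nrg1 (-1.96), Epgn (-0.96) and Hbegf (-0.89) and the receptor gene Erbb2 (-0.79). In the Notch list 6 of 18 fell and 1 rose, with Numb, a Notch antagonist, at 1962, 1994 and 1705 in ALs, against 5045, 4889 and 4447 in ALPs (log2 -1.35, adjusted p = 2.03e-06). In the list of TGF-beta, activin and BMP signalling 9 of 29 fell, among them Smad3 (log2 -0.38), Inhbb (-1.06) and Id3 (-1.88), and Bmp2 rose (1.56). Counted in 1 fit, 11 were lower with all arrays, 6 with the 6 arrays alone and 4 after median centring, where 2 were higher.

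Of 31 tested Wnt pathway genes 5 were higher and 8 lower, against 17.2% higher and 17.5% lower of all genes tested. The list median of log2 -0.006 was near the -0.02 of all genes, and after median centring 8 passed as higher and 6 as lower. Besides Rspo1, the ligand gene Wnt6 rose by log2 1.43, and Axin2, a direct target of canonical signalling, read 556.5, 536.7 and 481.5 in ALs, against 85.8, 85.9 and 426.5 in ALPs (log2 1.84, adjusted p = 0.0182; 2.61 without ALP replicate 3). Replicate 3 was the ALP array near to the ALs for this gene, and MaSCs averaged 507.2. The ligand genes Wnt5a and Wnt7b fell, Wnt7b with 52.9, 33.4 and 64.6 in ALs, against 639.0, 703.4 and 453.4 in ALPs (12.1-fold lower), as did the receptor gene Fzd4 (log2 -2.65).

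Of the 14 largest falls named by rule 13 had their highest virgin mean in MLs, but these genes were not confined to MLs. Their means ran from 635 (Cxcl5) to 14356 (Fam25c) in MLs. In LPs they ran from 65.1 (Tmprss11a) to 5213 (Fgb), and in MaSCs from 118 (Cxcl5) to 6552 (Fam25c). Dmbt1, a secreted scavenger glycoprotein of mucosal surfaces, read 7.80, 6.71 and 14.4 in ALs, against 6781, 10981 and 7134 in ALPs (log2 -9.80, SE 0.75, adjusted p = 3.42e-06), with a mean of 12090 in MLs. Ido1, which opens the kynurenine route of tryptophan breakdown, read 30.1, 21.2 and 15.1 in ALs, against 6396, 10239 and 8724 in ALPs (log2 -8.61, adjusted p = 1.35e-06). Both were bright on all ALP arrays and under the array median on all AL arrays, where the size of a fold depends on the treatment of dim values: with 16 added to each intensity the differences were -8.32 for Dmbt1 and -7.79 for Ido1.

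Others in this group were the calcium-permeable channel gene Trpc6 (log2 -7.48), the protease genes Ctse (-7.22) and Tmprss11a (-6.88), the diamine oxidase gene Aoc1 (-7.15), Nrxn3 (-6.71), the keratin gene Krt6a (-6.66), Fam25c (-6.52), the axonemal dynein gene Dnaic1 (-6.51), the fibrinogen gene Fgb (-6.45), the kinesin gene Kif5c (-6.10) and the chemokine gene Cxcl5 (-6.03). With 16 added to each intensity the differences were -4.70 for Tmprss11a, -4.06 for Cxcl5 and -6.03 for Trpc6. The exception to the highest mean in MLs was Kcne3, a potassium channel subunit, which averaged 3570 in LPs and 1122 in MLs and fell by 6.56. Among all 353 genes that fell at least 4-fold in both fits 55.0% had their highest virgin mean in MLs, against 38.5% of all genes tested. Among the 288 that rose at least 4-fold 44.8% had it in LPs, against 32.5%.

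The other large rises were of mixed function. They were Bcl2l15 of the Bcl2 family (5994, 5627 and 6362 in ALs, against 214.6, 75.1 and 64.3 in ALPs; log2 5.89), Oit1 (log2 5.61), Sapcd2 (5.16), Alox12e, an epidermal lipoxygenase gene (5.11), and Acbd7, of the acyl-CoA binding family (5.08). For all of these the AL arrays lay above every ALP array.

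Of 18 tested genes of innate defence 8 fell and 4 rose, against 17.5% lower and 17.2% higher of all genes tested. After median centring 8 passed as lower and 5 as higher. The neutrophil chemoattractant and growth factor genes Cxcl1 (log2 -1.81), Cxcl2 (-2.80), Cxcl5 and Csf3 fell, Csf3 with 199.3, 318.9 and 408.9 in ALs, against 5410, 4666 and 4471 in ALPs (16.3-fold lower). Cxcl15 read 108.9, 154.6 and 143.5 in ALs, against 5972, 7801 and 6084 in ALPs (log2 -5.61), and the protease inhibitor gene Wfdc2 fell by 3.59. The immunoglobulin transporter gene Pigr rose, with 2530, 3033 and 1900 in ALs, against 444.6, 313.9 and 148.1 in ALPs (log2 3.15, adjusted p = 8.85e-05), and so did the acute-phase genes Saa1 (log2 2.05) and Saa2 (3.57), both highest in AL replicate 2.

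Replicate 3 of the ALPs carried transcripts of other cell types. ALP replicate 3 correlated with the other ALP arrays at r = 0.901 and 0.916 over genes, against 0.970 between those 2 and 0.984 to 0.989 among ALs. The summed intensity of the leukocyte markers, a list of 39 genes of which 13 were tested and 24 were too dim, was 124272 on this array, against 10469 and 10756 on the other ALP arrays and 12443 to 16659 in ALs. Ptprc (CD45) read 77.9, 93.6 and 67.2 in ALs, against 43.3, 58.8 and 2795 in ALPs, and the macrophage gene Adgre1 read 64.0 to 203.1 in ALs, against 27.6, 72.0 and 5053 in ALPs. Of the 13 tested leukocyte markers 1, Cd68, was lower in ALs both with all arrays (log2 -1.47) and without replicate 3 (-0.85, adjusted p = 0.0106). The list median was 0.66 without replicate 3 and -1.16 with it.

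Endothelial markers summed to 2902 to 3692 in ALs, against 4451, 8918 and 35069 in ALPs, and 5 of 10 fell also without replicate 3 (Cldn5 log2 -1.58 and Flt1 -1.76 in that fit), while 1 passed with the 6 arrays alone. In ALPs minus LPs 9 of the 10 passed as higher, against 3.58% of all genes tested. Without replicate 3, 8 of the 10 still did, against 1.75%. Cldn5 read 469.4, 1092 and 4103 in ALPs, against a mean of 29.5 in LPs. Fibroblast markers summed to 34923 to 48928 in ALs, against 56467, 60947 and 128079 in ALPs, and 1 of 15, Ogn, fell in both fits. Adipocyte markers, a list of 11 genes of which 3 were tested and 6 were too dim, summed to 5176 to 5748 in ALs. On the ALP arrays they summed to 7275, 10669 and 19488, and 1 of the 3 fell in both fits. Basal markers summed to 49590 to 55684 in ALs, against 39135, 35447 and 80466 in ALPs. Acta2, smooth muscle actin of myoepithelial cells, read 6946, 8619 and 7717 in ALs, against 3931, 3306 and 12157 in ALPs, and averaged 16622 in MaSCs, 482.6 in LPs and 327.6 in MLs. Of the 20 basal and myoepithelial genes tested 1 rose and 2 fell in both fits. The genes that fell were Lgr5, a receptor of R-spondins (log2 -1.96, from intensities of 22.7 to 28.3 in ALs and 65.1 to 202.8 in ALPs), and the laminin gene Lama3 (-1.18). Oxtr, the oxytocin receptor of myoepithelial cells, rose by log2 2.62 (5034, 5150 and 4367 in ALs, against 336.4, 600.9 and 2398 in ALPs). Without replicate 3, 7 of the 20 passed as higher and 2 as lower, against 21.9% and 18.8% of all genes tested. Krt5 and Cnn1 were among those that passed as higher only then. The list median was log2 0.66 without replicate 3 and 0.19 with it. For 13 of the 20 every AL array lay above ALP replicates 1 and 2. The part of these transcripts in the other results was not tested. The milk, hormone-sensing, replication and mitosis counts were the same or differed by at most 1 gene when replicate 3 was left out.

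**Figure D4:**
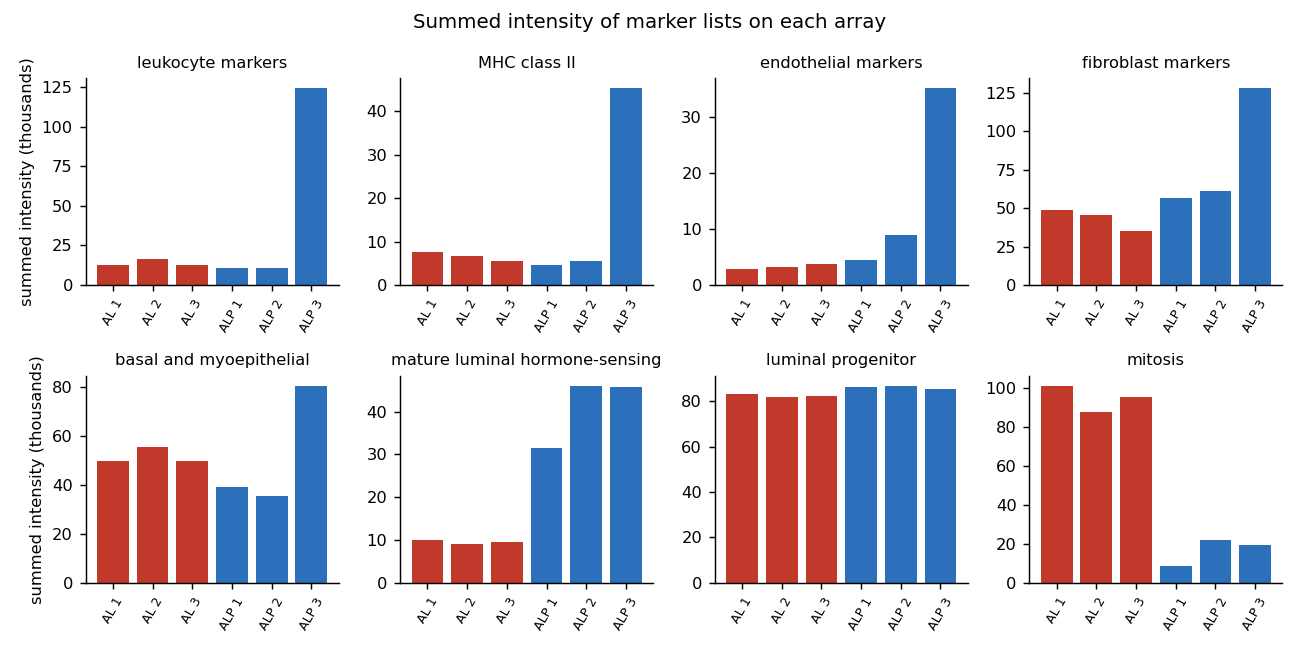
Summed intensity (vertical axes, scaled as labelled) over 8 marker lists on each AL array (red) and ALP array (blue). ALP replicate 3 stands above all other arrays for leukocyte, MHC class II, endothelial and fibroblast markers, and hormone-sensing and mitosis lists separate ALs from ALPs on all 6 arrays.

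**Figure D5:**
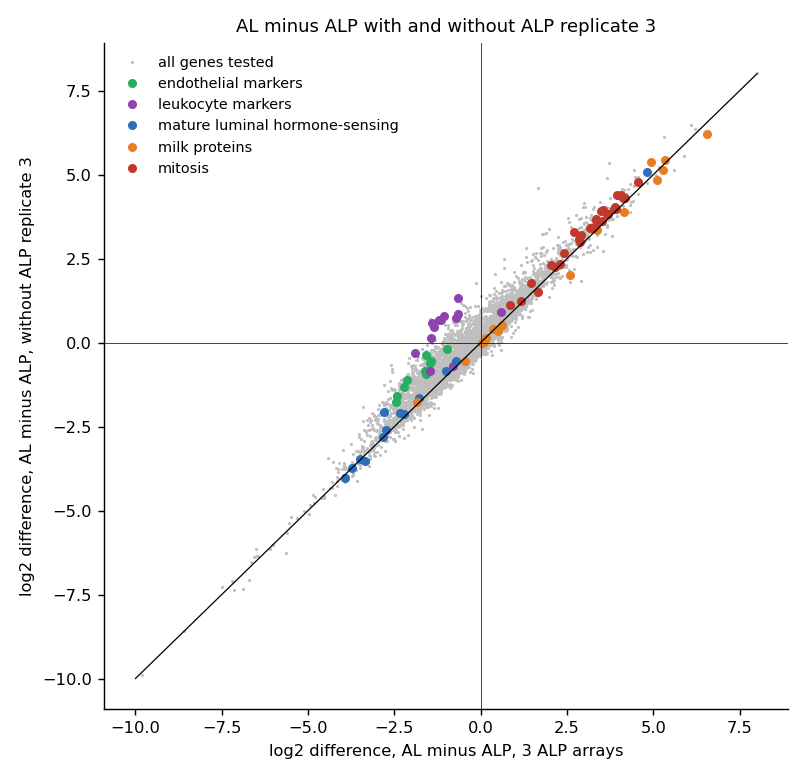
Log2 difference of AL minus ALP for each gene tested with 3 ALP arrays (horizontal axis) and without ALP replicate 3 (vertical axis), with the line of equality. Leukocyte and endothelial markers lie above the line, at median log2 differences of -1.16 and -1.61 with all arrays and 0.66 and -0.89 without the replicate, while milk protein, mitosis and hormone-sensing genes lie close to it.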

How the data were processed

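RNA from sorted cells was amplified with the NuGEN Ovation V2 system and hybridised to Affymetrix whole-genome mouse arrays. The authors normalised all arrays with dChip and deposited intensity values on a linear scale, 1 per probe set and array. The version, expression model, background handling and baseline array of dChip are not stated by the sources used here, and detection calls were not used here. Groups came from the sample labels. Of 45101 probe sets, 34945 had 1 gene symbol in the platform annotation, 932 had several and 9160 had none. Probe sets above the array median in at least 3 of 15 arrays were kept, of which 3706 without a single symbol were left out, and for each of 12143 genes its brightest probe set, by the mean of log2 values, was used. Intensities were floored at 1 and log2 values of all 15 arrays fitted with 1 mean per population (limma 3.58.1 in R 4.3.3, 10 residual degrees of freedom), with Benjamini-Hochberg adjustment over all genes. Shared error across populations means that p-values lean on the spread of all 5 groups, and the number of arrays limits the precision.

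On simulated data with 12143 genes the fit of ALs minus ALPs recovered 47 of 100 genes changed by log2 1 and 89 of 100 changed by log2 2, with 10 false calls among 11943. The simulated noise was independent and equal on all arrays of a gene, and few genes were changed. In the data 4849 genes passed and ALP replicate 3 stood apart, so these rates do not carry over to it. Named genes are the 14 largest differences in each direction that passed in both fits, did not overlap and were above the array median in the brighter population, genes without a proper name being skipped; up to 4 members of each list by moderated t; all luminal transcription factors; and the sorting and lineage markers. Further list members are named for their role, after their values were seen. The members and lists were chosen with earlier results of these data known. Alternatives covered the arrays fitted, scale, floor, filter, probe set, weights and a replicate block.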

Additional observations from a re-analysis of the deposited data

How the results depend on the processing

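The count of 4849 genes passing between ALs and ALPs was 3679 with the 6 arrays alone, 5280 after quantile normalisation and 4758 without a filter. After median centring 4430 genes were higher and 1565 lower, 1365 of them at least 2-fold higher. Testing every passing probe set on its own gave 8870 probe sets, 3988 higher and 4882 lower, with 3903 past 2-fold (1446 higher, 2457 lower). Array weights, which gave ALP replicate 3 the weight 0.220 and ALP replicate 2 the weight 3.75, gave 7380 passing and 3596 higher. Leaving out 1 array at a time gave 3770 to 4937 passing, 1686 to 2656 higher and 1946 to 2616 lower. For ALPs minus LPs 915 genes passed, and 482 without ALP replicate 3. Deviations of same-numbered AL and ALP arrays correlated at 0.214, -0.087 and -0.149, and all pairs ran from -0.278 to 0.261. With 3 arrays per group these correlations constrain one another, so they cannot tell whether the numbers pair the arrays. A fit with the replicate block gave 4533 passing, of which 4448 were shared.

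Of the named genes 164 passed, and 44 of these changed their call in some setting and 5 their sign, while 13 of the 15 that did not pass changed their call and 9 their sign. With the largest-variance probe set the reversed log2 differences were Bcl2l11 0.79, Bop1 -2.58, Cd24a 0.056, Derl1 0.14, Grhl2 -0.51 and Trps1 -0.20. With median centring they were Cbfb 0.073, Cd24a 0.25, Ctsl 0.023, Gata3 0.051, Id2 0.17, Sox9 0.12 and Xbp1 0.23. Array weights gave Id2 0.019 and Tfap2c -0.067, no filter gave Tnfrsf11b -0.41, and quantile normalisation gave Xbp1 0.0079. Leaving out 1 array gave Cd24a -0.048 to 0.020, Id2 -0.20 to 0.055 and Xbp1 -0.13 to 0.00076. The cause of these changes was not tested. Dim probe sets limit the size of the largest folds.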

Other observations

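Further gene groups were counted by the same rule of passing with and without ALP replicate 3, by which 17.2% of all genes were higher and 17.5% lower in ALs. Of 13 tested targets of p53 none rose and 5 fell, including Zmat3, an RNA-binding protein gene (1128, 1250 and 1401 in ALs, against 2553, 2691 and 2658 in ALPs; log2 -1.07), and after median centring 1 passed as higher and 4 as lower. Bcl2, the anti-apoptotic founder of its family, read 672.6, 533.3 and 549.6 in ALs, against 1993, 1688 and 1524 in ALPs (log2 -1.57). Of 27 genes of integrins and basement membrane 8 fell and 1 rose (8 and 3 after median centring). The gene that rose was Lama1, the laminin alpha 1 chain, with 566.7, 652.6 and 462.3 in ALs, against 42.0, 55.6 and 142.3 in ALPs (log2 3.00).

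Of 18 genes of DNA methylation and Polycomb 4 rose and none fell, a share near that of all genes, and 10 passed as higher after median centring. Ezh2, the histone H3 methyltransferase of Polycomb, read 3441, 3396 and 3310 in ALs, against 1009, 1618 and 1726 in ALPs (log2 1.26). Of 16 circadian genes 5 fell and 1 rose (3 and 1 after median centring). Bhlhe41, a repressor in the clock, was 10.8-fold lower in ALs (82.6, 38.4 and 78.4, against 529.6, 826.0 and 711.8 in ALPs), while Per3 rose by log2 1.40. Among imprinted growth genes Igf2, insulin-like growth factor 2, read 1845, 2248 and 2270 in ALs, against 248.4, 234.8 and 1523 in ALPs (log2 2.24, and 3.13 without ALP replicate 3), and Phlda2 read 60.9, 63.0 and 71.7 in ALs, against 622.8, 631.0 and 355.9 in ALPs (log2 -3.00).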
